A study of Mus musculus with 4 samples.

Results

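The 33 interferon-stimulated genes described here were taken by name from a list, and each had 1 entry among the 21499 gene symbols of the series. They were followed in lung tissue of 4 mice whose lungs carried B16-F10 metastases, colonies of a mouse melanoma line. The groups were 2 Lf-/- mice, which lack lactoferrin (the product of Ltf, an iron-binding protein of secretions and of neutrophil granules), and 2 WT mice. According to the labels all mice were male, of strain C57B/L6, received 200000 B16-F10 cells through the tail vein at 8 weeks of age and were killed at the end of week 3. The labels describe the tissue as lying near the colonies and free of tumour cells, and 2 of 10 mice per genotype have a library here. The labels give no promoter, allele or cell type for the knockout, so it is described only as Lf-/-. The study asked how loss of lactoferrin changes the lung around metastases, and the comparison here asks how interferon-stimulated genes differed between these 4 lungs.

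Interferons are secreted when cells sense foreign or misplaced nucleic acid, and type I and type III interferons signal through a complex that holds Stat2 and Irf9 and binds the interferon-stimulated response element (ISRE) of target genes. Interferon gamma, made by T cells and natural killer cells, acts at a different DNA element (GAS). The Oas enzymes make oligoadenylates that switch on the nuclease RNase L, the Ifit proteins bind the ends of foreign RNA, and the Gbp proteins are GTPases that attack the vacuoles of intracellular microbes and answer strongly to interferon gamma. In lung, macrophages, lymphocytes, endothelium and epithelium all express members of these families. Bulk tissue was measured, so fewer cells of a type and less RNA per cell cannot be told apart.

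Levels are in FPKM (fragments counted per length of transcript and per sequenced total), a per-length scale on which genes can be set beside each other. They summed to 388799 and 317976 in Lf-/- mice 1 and 2, and to 400153 and 375543 in WT mice 1 and 2. Without Scgb1a1, a club cell gene listed at 0 in Lf-/- mouse 2, the sums were 318818 and 317976 in the Lf-/- mice and 327216 and 315089 in the WT mice. Absolute depth is unknown, and low values put the depth at 0.966 and 1.33 times in the Lf-/- libraries and at 1.11 times in WT library 2, relative to WT library 1. Ltf had 0.104 and 0.533 FPKM in the Lf-/- mice, against 79.2 and 7.32 FPKM in the WT mice. The Y-linked genes Eif2s3y and Ddx3y had 22.0 to 24.2 and 12.1 to 14.5 FPKM in the Lf-/- mice, against at most 0.0426 FPKM in the WT mice, although the labels call all mice male. Every comparison below thus shares this limit: effects of Lf-/- and of a Y chromosome cannot be told apart. Lung markers were present: Ager, of alveolar type 1 cells, had 1086 and 1410 FPKM in the Lf-/- mice, against 796 and 973 FPKM in the WT mice. The 6 melanocyte markers summed to 6.58 and 2.39 FPKM in the Lf-/- mice, against 5.59 and 100 FPKM in the WT mice. In WT mouse 2 Pmel had 30.8, Tyrp1 24.1, Mlana 21.7 and Dct 21.4 FPKM. Lf-/- mouse 1 had Dct at 1.37, Pmel at 1.26 and Tyrp1 at 0.678 FPKM. In Lf-/- mouse 2 and WT mouse 1 each of these was at most 0.216 FPKM. Mlana ran otherwise, with 2.92 FPKM in Lf-/- mouse 1 and 4.53 FPKM in WT mouse 1. The values of WT mouse 2 go against the label of tumour-free tissue. Counts of members without overlap, and differences of members with their highest value in WT mouse 2, are thus also given without it. Pathway genes and cell markers are not given without it.

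The letters in front of the genes were read for 23 of the 33 members, those with a promoter window in the RefSeq table (GRCm38.p6). The ISRE was searched as GAAA followed, after any 2 bases, by another GAAA, on both strands of the 250 bases before each start, and overlapping matches were kept. It was found for 10 of the 23 members (43.5%), against 3.46% of 27025 genes with a window of the same length. The GAS letters TTCNNNGAA, which read the same on both strands, were found for 4 of the 23 (17.4%), against 8.13% of all genes. Of the 4 Oas members with a window, Oas1a and Oas3 held an ISRE match, of 3 Ifit members Ifit1 and Ifit3 did, and both Gbp2 and Gbp3 did. Gbp4 and Oas2 were among the 10 members without a window in the table. A match describes letters only, and no binding was measured.

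The 160 bases before the most upstream annotated start (RefSeq or GENCODE) are shown for members of each subgroup and for Isg15. They were taken from the 10 members with an ISRE match, and their levels below differ in direction. Capitals mark the ISRE matches, and each run is on the strand of the gene, 5′ to 3′, in GRCm38.p6: Oas1a at chr5:120907526-120907685 (minus strand), Oas3 at chr5:120777662-120777821 (minus strand), Ifit1 at chr19:34640711-34640870 (plus strand), Ifit3 at chr19:34583369-34583528 (plus strand), Gbp3 at chr3:142559866-142560025 (plus strand) and Isg15 at chr4:156200819-156200978 (minus strand).
Oas1a: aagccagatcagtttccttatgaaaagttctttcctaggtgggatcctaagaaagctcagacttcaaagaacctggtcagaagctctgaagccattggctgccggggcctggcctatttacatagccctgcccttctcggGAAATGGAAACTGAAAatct
Oas3: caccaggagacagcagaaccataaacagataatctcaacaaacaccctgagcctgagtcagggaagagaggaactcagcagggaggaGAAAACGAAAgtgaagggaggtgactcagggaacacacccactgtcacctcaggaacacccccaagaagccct
Ifit1: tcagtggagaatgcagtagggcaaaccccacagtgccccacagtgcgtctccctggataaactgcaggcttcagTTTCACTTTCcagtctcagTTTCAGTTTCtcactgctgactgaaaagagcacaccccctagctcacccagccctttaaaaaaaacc
Ifit3: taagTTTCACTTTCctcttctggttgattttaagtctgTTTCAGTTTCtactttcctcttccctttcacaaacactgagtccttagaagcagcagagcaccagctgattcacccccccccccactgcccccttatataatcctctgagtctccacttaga
Gbp3: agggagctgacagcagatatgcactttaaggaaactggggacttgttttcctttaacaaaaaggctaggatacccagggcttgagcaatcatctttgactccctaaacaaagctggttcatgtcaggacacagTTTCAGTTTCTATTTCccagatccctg
Isg15: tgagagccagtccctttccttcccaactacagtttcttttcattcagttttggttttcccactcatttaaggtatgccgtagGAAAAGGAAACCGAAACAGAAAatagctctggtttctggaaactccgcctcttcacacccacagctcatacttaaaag

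In the runs of Ifit1, Ifit3 and Gbp3 the element appears as TTTC repeats, its other strand, and in those of Oas1a, Oas3 and Isg15 as GAAA repeats. Isg15 held 3 overlapping matches, which make up 22 bases in capitals, and Oas1a and Gbp3 each held 2 that overlap. Positions are counted from the RefSeq start, which in Ifit1, Gbp3 and Oas3 does not directly follow the run shown but lies further downstream. The first match began at -20 in Oas1a, -45 in Gbp3, -75 in Oas3, -78 in Isg15, -104 in Ifit1 and -156 in Ifit3. The same letters thus stood before Oas1a and Oas3, whose levels lay lower in both Lf-/- mice, and before Ifit3, whose level lay higher, although none of these passed the test. No match was found for Oasl1, which lay lower in both Lf-/- mice, or for Ifit2, which lay higher, and Oas2 had no window.

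**Figure D1:**
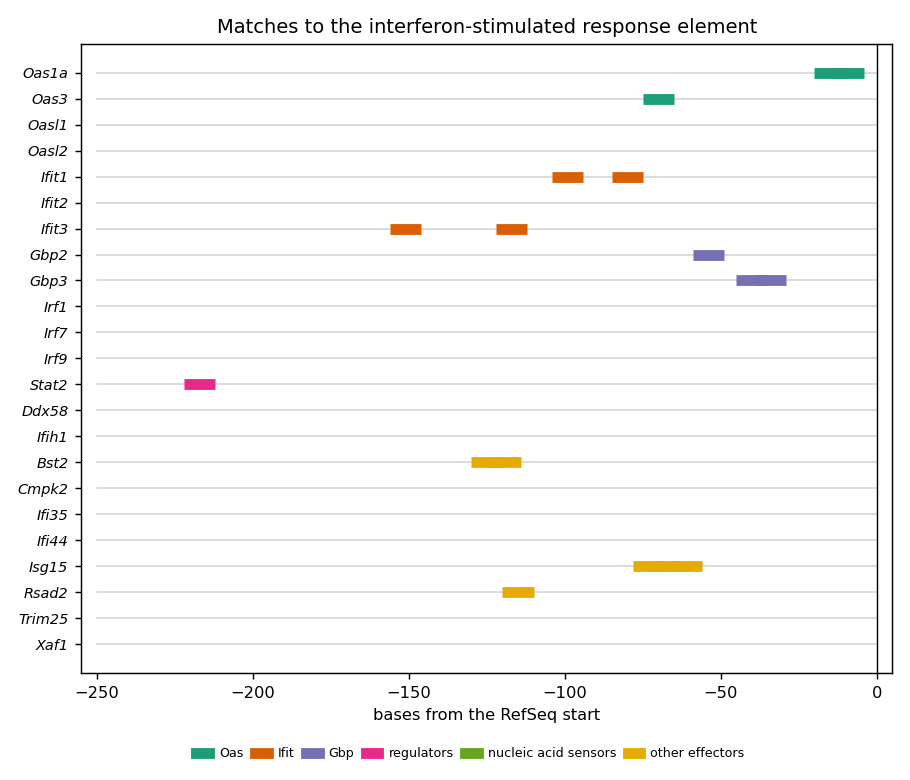
Matches to the ISRE in the 250 bases before the RefSeq start of 23 members, in bases from the start (x axis), 1 gene per line and coloured by role. Of the 23 members, 10 have a match, and for all of these but Stat2 it lies within 160 bases of the start.

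No member passed the threshold in the genotype comparison, and neither did the deleted gene Ltf (log2 difference -4.31, SE 1.09, adjusted p = 0.89 by limma). Of the 33, 32 reached 1 FPKM in 2 or more libraries and were tested, and the smallest adjusted p of a member was 0.89 by limma on log2(FPKM + 1). Over all 12573 genes tested 2 were called higher (0.0159%), the Y-linked Eif2s3y and Ddx3y, and 1 lower (0.00795%) at an adjusted p under 0.05. At an unadjusted p under 0.05 there was 1 member (Oas2), against 5.11% of all genes. Of the 32 members, 14 had a higher mean and 18 a lower mean on the log2 scale in the Lf-/- mice, against 48.8% higher and 51.2% lower over all genes. The median log2 difference was -0.05 over the members and 0.00 over all genes. Both Lf-/- libraries lay above both WT libraries for 6 members and below them for 9, against 18.5% and 17.5% of all genes. The 9 include Oas3, which reached 1 FPKM in the WT mice only and so entered the test through the group where it is high. The median and the share above WT thus lay near those of all genes. The share below WT was larger than over all genes, and these counts were not tested. These counts moved with single mice: without Lf-/- mouse 1, 19 members lay below WT with no overlap (40% of all genes), without Lf-/- mouse 2, 17 lay above (35.8% of all genes), and without WT mouse 1, 10 lay above (39.7% of all genes). Without WT mouse 2, 8 lay above and 13 below, against 28.4% and 35.6% of all genes.

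**Figure D2:**
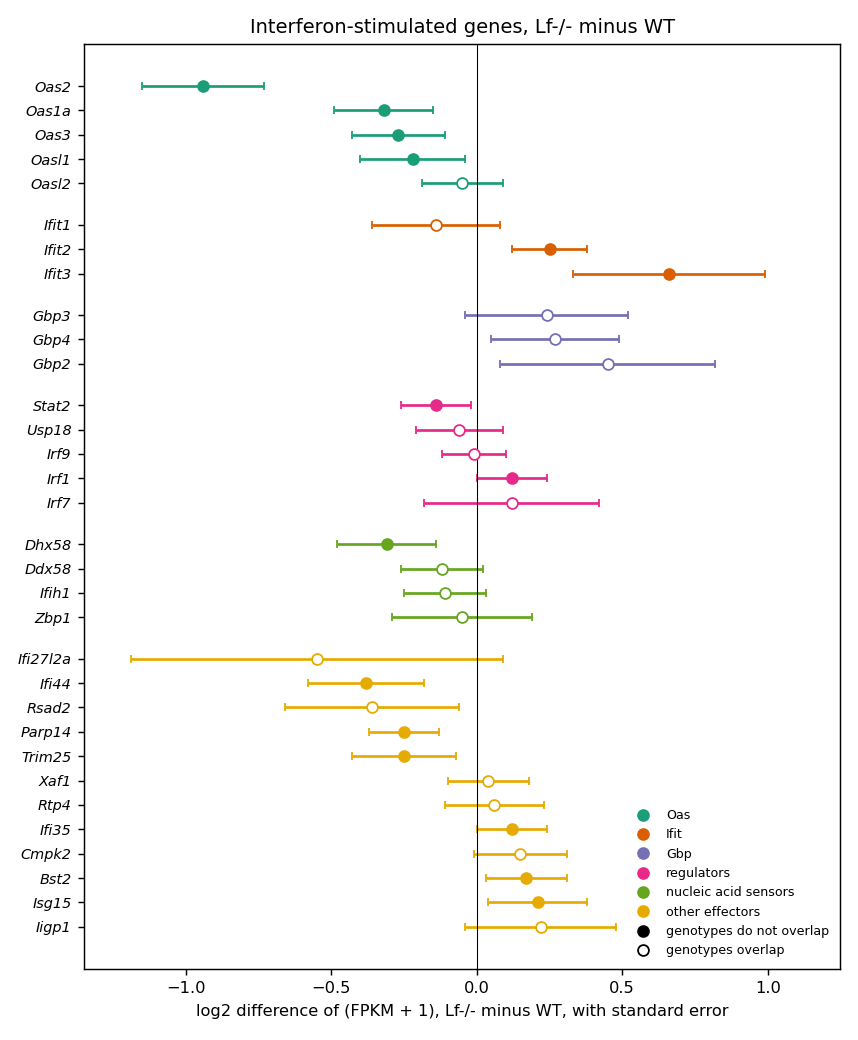
Log2 difference of FPKM + 1 (x axis, Lf-/- minus WT, bars are standard errors from limma, 2 mice per genotype) for the 32 members tested, grouped by role, with filled points where the genotypes do not overlap. All 5 Oas points lie below 0 and all 3 Gbp points above it, and the Gbp points are open.

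All 5 Oas genes had a lower mean in the Lf-/- lungs, none passed the test, and Oas2 had the largest difference among them. Oas2 (chromosome 5, 120730333 to 120749853, minus strand, GRCm38), an oligoadenylate synthetase, had 1.17 and 1.43 FPKM in Lf-/- mice 1 and 2, against 2.78 and 4.15 FPKM in WT mice 1 and 2. Both Lf-/- mice were below both WT mice, and no other member had means at least 2-fold apart, against 1.56% of all genes with this fold and order in the lower direction. Oas2 averaged 1.30 ± 0.185 FPKM in Lf-/- mice and 3.46 ± 0.97 FPKM in WT mice (SD, n = 2 each), 0.375 times as much. The log2 difference was -0.94 (SE 0.21), with an unadjusted p of 0.00716 and an adjusted p of 0.89 by limma. It lay between -1.17 and -0.72 when single mice were left out.

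Oas1a (chromosome 5, 120896256 to 120907521, minus strand) had 3.78 and 3.42 FPKM in the Lf-/- mice, against 4.05 and 5.50 FPKM in the WT mice. Oas3 (chromosome 5, 120753098 to 120777661, minus strand), the largest synthetase of the family, had 0.729 and 0.851 FPKM in the Lf-/- mice, against 1.10 and 1.22 FPKM in the WT mice. Oasl1 (chromosome 5, 114923240 to 114937915, plus strand), a synthetase-like protein that in mouse restrains Irf7, had 1.17 and 0.808 FPKM in the Lf-/- mice, against 1.23 and 1.40 FPKM in the WT mice. For each of these genes both Lf-/- mice lay below both WT mice, with log2 differences of -0.32 (SE 0.17) for Oas1a, -0.27 (SE 0.16) for Oas3 and -0.22 (SE 0.18) for Oasl1. When single mice were left out, Oas1a lay between -0.50 and -0.14 (the smaller difference without WT mouse 2) and Oasl1 between -0.35 and -0.09 (the smaller without Lf-/- mouse 2). With a pseudocount of 0.1 Oas3 was -0.50 and Oasl1 -0.39, and after quantile normalization they were -0.15 and -0.11. Oas3 reached an FPKM of 1 in the WT mice only, so it entered the test through the group where it is high.

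Oasl2 (chromosome 5, 114896936 to 114912234, plus strand), the most abundant member of the subgroup, had 11.8 and 10.2 FPKM in the Lf-/- mice, against 12.1 and 10.7 FPKM in the WT mice. Its genotypes overlapped and its log2 difference was -0.05 (SE 0.14), which became 0.05 without Lf-/- mouse 2 and 0.04 without WT mouse 1. The median of the 5 Oas genes was -0.27, the value of Oas3 itself. Of the other 4, Oas1a, Oas2 and Oasl1 lay below WT without overlap, against 17.5% of all genes. WT mouse 2, the library with the most melanocyte transcripts, held the highest value of every Oas gene but Oasl2. The part of this in the differences was not tested. Without WT mouse 2 the log2 differences were -0.72 for Oas2, -0.23 for Oas3, -0.17 for Oasl1, -0.14 for Oas1a and -0.13 for Oasl2. At a mean FPKM of at least 5 only Oasl2 remained. Oas2, Oas3 and Oas1a lie within 1 stretch of chromosome 5 and Oasl1 and Oasl2 in another, so their values share position as well as family. Oas1a has a near-identical copy, Oas1g (97.6% identity over 98.7% of the transcript), and how the authors split reads between them is not given. Oas1g itself had 0.149 and 0.332 FPKM in the Lf-/- mice, against 0.269 and 0.294 FPKM in the WT mice, and the sum of both genes gave a log2 difference of -0.31.

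The Ifit subgroup did not move as 1 group: Ifit3 and Ifit2 were higher in both Lf-/- mice and Ifit1 overlapped. Over all genes 18.5% lay above WT without overlap. Ifit3 (chromosome 19, from 34583531, plus strand) had 37.5 and 29.2 FPKM in the Lf-/- mice, against 14.9 and 28.2 FPKM in the WT mice. Lf-/- mouse 2 and WT mouse 2 were nearly level, and the distance between genotypes came mostly from WT mouse 1. Ifit3 averaged 33.4 ± 5.87 FPKM in Lf-/- mice and 21.5 ± 9.41 FPKM in WT mice (SD, n = 2 each). The log2 difference of 0.66 (SE 0.33, adjusted p = 0.89 by limma) was 0.23 without WT mouse 1 and 1.10 without WT mouse 2.

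Ifit3b, a copy with 97.8% identity over 97.4% of the Ifit3 transcript, had 9.28 and 7.73 FPKM in the Lf-/- mice, against 5.02 and 7.38 FPKM in the WT mice. It showed the same order of mice as Ifit3, and since reads may be shared between these copies it is no separate evidence. The sum of Ifit3 and Ifit3b gave a log2 difference of 0.62. Ifit2 (chromosome 19, from 34550694) had 7.96 and 6.84 FPKM in the Lf-/- mice, against 5.80 and 6.29 FPKM in the WT mice, a log2 difference of 0.25 (SE 0.13). Ifit1 (chromosome 19, from 34640871) had 7.33 and 4.84 FPKM in the Lf-/- mice, against 5.96 and 7.44 FPKM in the WT mice. Its highest and lowest values were WT mouse 2 and Lf-/- mouse 2, and its log2 difference was -0.14 (SE 0.22), or 0.12 without Lf-/- mouse 2 and 0.00 without WT mouse 2.

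All 3 Gbp genes had their highest value in Lf-/- mouse 1 and overlapped between genotypes. Gbp2 (chromosome 3, 142620602 to 142638008, plus strand) had 49.5 and 23.15 FPKM in the Lf-/- mice, against 24.8 and 24.3 FPKM in the WT mice. Gbp3 (chromosome 3, 142560026 to 142573209, plus strand) had 11.8 and 6.48 FPKM in the Lf-/- mice, against 7.48 and 7.06 FPKM in the WT mice. Lf-/- mouse 1 was the highest and Lf-/- mouse 2 the lowest for both, while the WT mice lay close together between them. Gbp4 (chromosome 5, 105115767 to 105139586, minus strand) had 7.50 and 5.60 FPKM in the Lf-/- mice, against 4.30 and 6.27 FPKM in the WT mice, and annotated exons of Gbp8 and Gbp9 overlap it on the same strand. The log2 differences were 0.45 (SE 0.37) for Gbp2, 0.24 (SE 0.28) for Gbp3 and 0.27 (SE 0.22) for Gbp4. Without Lf-/- mouse 1 the subgroup median of 0.27 became -0.08, so its direction rested on that mouse.

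**Figure D3:**
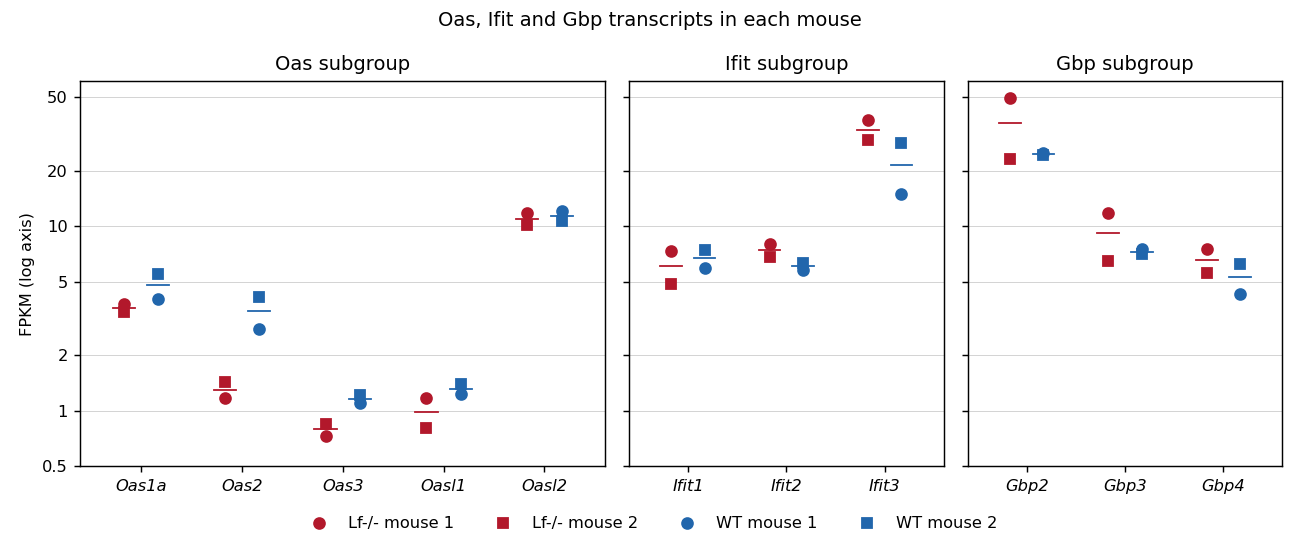
FPKM on a log axis for each Oas, Ifit and Gbp member in Lf-/- mice (red, left of each pair) and WT mice (blue, right); circles are mouse 1, squares mouse 2 and lines the means. Both Oas2 points of Lf-/- mice (1.17 and 1.43) lie below those of WT mice (2.78 and 4.15), and for Gbp2 Lf-/- mouse 1 (49.5) lies alone above the other 3 mice.

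Set against each other within each mouse, the subgroups differed as follows. The mean log2(FPKM + 1) of the Ifit genes exceeded that of the Oas genes by 2.04 and 1.75 in the Lf-/- mice, against 1.15 and 1.40 in the WT mice. Both Lf-/- mice lay above both WT mice, with a gap of 0.62 between the genotype means. The Gbp genes exceeded the Oas genes by 2.35 and 1.68 in the Lf-/- mice, against 1.35 and 1.31 in the WT mice, again without overlap and with a gap of 0.68. The Gbp genes minus the Ifit genes gave 0.31 and -0.07 in the Lf-/- mice, against 0.21 and -0.09 in the WT mice, which overlapped. These contrasts are differences within a library and do not depend on its scaling, apart from the added 1. They are given as values without a p, because the subgroups were chosen with results of these mice known, and the Oas mean includes Oas3.

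Among the regulators, the factors that carry the interferon signal were close to level. Irf9, the DNA-binding part of the complex at the ISRE, had 15.0 and 15.1 FPKM in the Lf-/- mice, against 15.8 and 14.4 FPKM in the WT mice. Stat2, its partner, had 10.6 and 9.45 FPKM in the Lf-/- mice, against 11.4 and 11.0 FPKM in the WT mice, without overlap and with a log2 difference of -0.14 (SE 0.12). Irf1, a factor induced above all by interferon gamma, had 41.7 and 36.5 FPKM in the Lf-/- mice, against 35.45 and 36.3 FPKM in the WT mice. Here Lf-/- mouse 2 and WT mouse 2 were nearly equal. Of the 5 regulators, 1 lay above WT (Irf1) and 1 below (Stat2) without overlap, against 18.5% and 17.5% of all genes. Irf7, which amplifies type I interferon production, had 9.01 and 4.62 FPKM in the Lf-/- mice, against 6.29 and 5.51 FPKM in the WT mice. As with Gbp2, both extremes were Lf-/- mice. Usp18, which removes Isg15 from proteins and dampens the type I receptor, had 6.82 and 7.61 FPKM in the Lf-/- mice, against 8.35 and 6.77 FPKM in the WT mice.

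The 4 nucleic acid sensors were all lowest in Lf-/- mouse 2. Dhx58 (LGP2), a regulator of the RNA helicase sensors, had 3.39 and 2.48 FPKM in the Lf-/- mice, against 3.59 and 4.13 FPKM in the WT mice. It was the only one of the 4 that lay below WT without overlap, against 17.5% of all genes. Its log2 difference of -0.31 (SE 0.17) was -0.48 without Lf-/- mouse 1, -0.14 without Lf-/- mouse 2 and -0.23 without WT mouse 2. Ddx58 (RIG-I) had 14.4 and 11.9 FPKM in the Lf-/- mice, against 14.35 and 14.25 FPKM in the WT mice. Ifih1 (MDA5) had 7.44 and 5.97 FPKM in the Lf-/- mice, against 7.18 and 7.37 FPKM in the WT mice. For both helicases Lf-/- mouse 1 was level with WT and only Lf-/- mouse 2 lay lower. Zbp1, a sensor of left-handed nucleic acid, had 3.66 and 2.04 FPKM in the Lf-/- mice, against 2.73 and 3.07 FPKM in the WT mice.

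Of the 13 other effectors, Isg15, the ubiquitin-like modifier, had 22.8 and 16.97 FPKM in the Lf-/- mice, against 16.89 and 16.87 FPKM in the WT mice. The groups did not overlap, but only Lf-/- mouse 1 stood away from the other 3 mice, and the log2 difference was 0.21 (SE 0.17), or 0.01 without Lf-/- mouse 1. Bst2 (tetherin), which holds budding virus at the cell surface, had 132 and 144 FPKM in the Lf-/- mice, against 117 and 128 FPKM in the WT mice. Ifi35 had 27.5 and 28.9 FPKM in the Lf-/- mice, against 27.4 and 24.6 FPKM in the WT mice. These 3 of the 12 effectors tested lay above WT without overlap, against 18.5% of all genes, by at most 0.21 on the log2 scale.

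Ifi44, Parp14 and Trim25, 3 of the 12 tested, lay below WT without overlap, against 17.5% of all genes, and so did the untested Mx1. Ifi44 had 3.34 and 2.17 FPKM in the Lf-/- mice, against 3.64 and 4.04 FPKM in the WT mice. Its log2 difference of -0.38 (SE 0.20) was -0.61 without Lf-/- mouse 1, -0.16 without Lf-/- mouse 2 and -0.32 without WT mouse 2. Parp14, an ADP-ribosyltransferase, had 12.2 and 11.4 FPKM in the Lf-/- mice, against 13.3 and 15.2 FPKM in the WT mice. Its log2 difference of -0.25 (SE 0.12) was -0.16 without WT mouse 2. Trim25, the ubiquitin ligase that acts on RIG-I, had 16.91 and 16.01 FPKM in the Lf-/- mice, against 16.93 and 23.1 FPKM in the WT mice. For Trim25 only WT mouse 2 stood away from the other mice, and its log2 difference of -0.25 was -0.04 without that mouse. Mx1, a GTPase against influenza virus whose gene is defective in many laboratory strains, had 0.513 and 0.396 FPKM in the Lf-/- mice, against 0.749 and 0.730 FPKM in the WT mice, and stayed under the limit for testing.

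Ifi27l2a varied most between mice of 1 genotype. It had 99.2 and 53.2 FPKM in the Lf-/- mice, against 193 and 58.6 FPKM in the WT mice, with a log2 difference of -0.55 (SE 0.64) that was 0.31 without WT mouse 1. Rsad2 (viperin), an enzyme that makes a chain-ending nucleotide, had 1.01 and 1.72 FPKM in the Lf-/- mice, against 1.38 and 2.78 FPKM in the WT mice. For Rsad2 the log2 difference of -0.36 (SE 0.30) was -0.03 without WT mouse 2. Its neighbour on chromosome 12, Cmpk2, had 10.1 and 8.06 FPKM in the Lf-/- mice, against 7.45 and 8.70 FPKM in the WT mice, so these adjacent genes had their lowest values in different genotypes. Iigp1, an immunity-related GTPase that answers to interferon gamma, had 15.9 and 9.33 FPKM in the Lf-/- mice, against 10.5 and 10.1 FPKM in the WT mice, the order of mice seen in Gbp2 and Gbp3. Rtp4 and Xaf1 overlapped, with log2 differences of 0.06 and 0.04.

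Over the members, the median gap was larger between the Lf-/- mice than between the WT mice, and this was not tested. Lf-/- mouse 1 held the highest value of 15 of the 32 members tested, against 25.7% of all genes, and Lf-/- mouse 2 the lowest value of 17, against 34.4% of all genes. Between the Lf-/- mice 25 of 32 members were higher in mouse 1, against 57.2% of all genes, with a median log2 gap of 0.26 over the members and 0.04 over all genes. Between the WT mice 18 of 32 were higher in mouse 2, against 42.9% of all genes, with a median gap of 0.05. The gap between the Lf-/- mice was 0.78 in the median of the Gbp genes, 0.35 in that of the Ifit genes, 0.30 in that of the sensors and 0.11 in that of the Oas genes. By this median the Oas genes had a smaller gap between the Lf-/- mice than the Gbp genes. The Oas median joins opposite signs, with 3 of 5 genes higher in Lf-/- mouse 1, while all 3 Gbp genes were higher there. The added 1 also shrinks gaps of Oas genes near 1 FPKM more than those of the Gbp genes.

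Markers of other cell types moved between the same mice. By genotype, 10 of 11 alveolar macrophage, 8 of 8 T cell, 7 of 7 B cell and 5 of 5 tested natural killer cell markers had a lower mean in the Lf-/- mice, and 6 of 8 neutrophil markers a higher one. Lower means were also seen in 11 of 12 monocyte and interstitial macrophage, 4 of 5 conventional dendritic cell, 4 of 5 plasmacytoid dendritic cell and 6 of 6 alveolar type 2 markers, and higher means in 8 of 8 endothelial and 6 of 6 alveolar type 1 markers. In Lf-/- mouse 1 all 7 B cell markers, all 8 T cell markers and all 5 tested natural killer cell markers were higher than in Lf-/- mouse 2. The B cell markers summed to 83.6 and 36.2 FPKM in the Lf-/- mice, against 56.1 and 74.0 FPKM in the WT mice. The T cell markers summed to 33.5 and 19.4 FPKM in the Lf-/- mice, against 32.0 and 38.3 FPKM in the WT mice, and the natural killer cell markers to 32.6 and 18.5 FPKM against 46.1 and 34.1 FPKM. The 11 alveolar macrophage markers summed to 495 and 163 FPKM in the Lf-/- mice, against 648 and 722 FPKM in the WT mice. The monocyte and interstitial macrophage markers summed to 308.5 and 229.5 FPKM in the Lf-/- mice, against 404 and 417 FPKM in the WT mice. The conventional dendritic cell markers summed to 21.4 and 11.8 FPKM in the Lf-/- mice, against 20.6 and 19.9 FPKM in the WT mice. The endothelial markers summed to 1413 and 1618 FPKM in the Lf-/- mice, against 1226 and 1305 FPKM in the WT mice, and the alveolar type 1 markers to 2386 and 3018 FPKM against 1872 and 2179 FPKM. The alveolar type 2 markers summed to 26180 and 20600 FPKM in the Lf-/- mice, against 26680 and 26880 FPKM in the WT mice. The 8 neutrophil markers ran the other way within the knockout, with 500 and 1393 FPKM in the Lf-/- mice, against 734 and 580 FPKM in the WT mice. The 7 markers of plasmacytoid dendritic cells, a source of type I interferon, summed to 69.1 and 97.5 FPKM in the Lf-/- mice, against 111 and 82.7 FPKM in the WT mice. No marker of these lists was at 0 in every library, and the part of cell make-up in the differences of the members was not tested. The macrophage, monocyte, natural killer cell and alveolar type 2 sums lay below WT in both Lf-/- mice, as Oas1a, Oas2, Oas3 and Oasl1 did. Averaged per gene in log2(FPKM + 1), these lists deviated from the 4-mouse mean by 0.27, 0.10, 0.06 and 0.03 in Lf-/- mouse 1. The Oas genes stood at -0.15 in that mouse. Endothelial and alveolar type 1 sums lay above WT in both. Gene by gene, 4 of 11 macrophage, 5 of 12 monocyte, 2 of 5 natural killer cell and 5 of 6 alveolar type 2 markers lay below without overlap. So did 3 of 8 T cell, 3 of 5 conventional dendritic cell, 1 of 5 plasmacytoid dendritic cell and 0 of 7 B cell markers. Of all genes, 17.5% did. The B cell and conventional dendritic cell sums were highest in Lf-/- mouse 1 and lowest in Lf-/- mouse 2, as Gbp2 and Gbp3 were. Most single markers did not share this order. Lf-/- mouse 1 was highest for 3 of 7 B cell and 1 of 5 tested conventional dendritic cell markers. Lf-/- mouse 2 was lowest for 7 of 7 and 4 of 5.

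**Figure D4:**
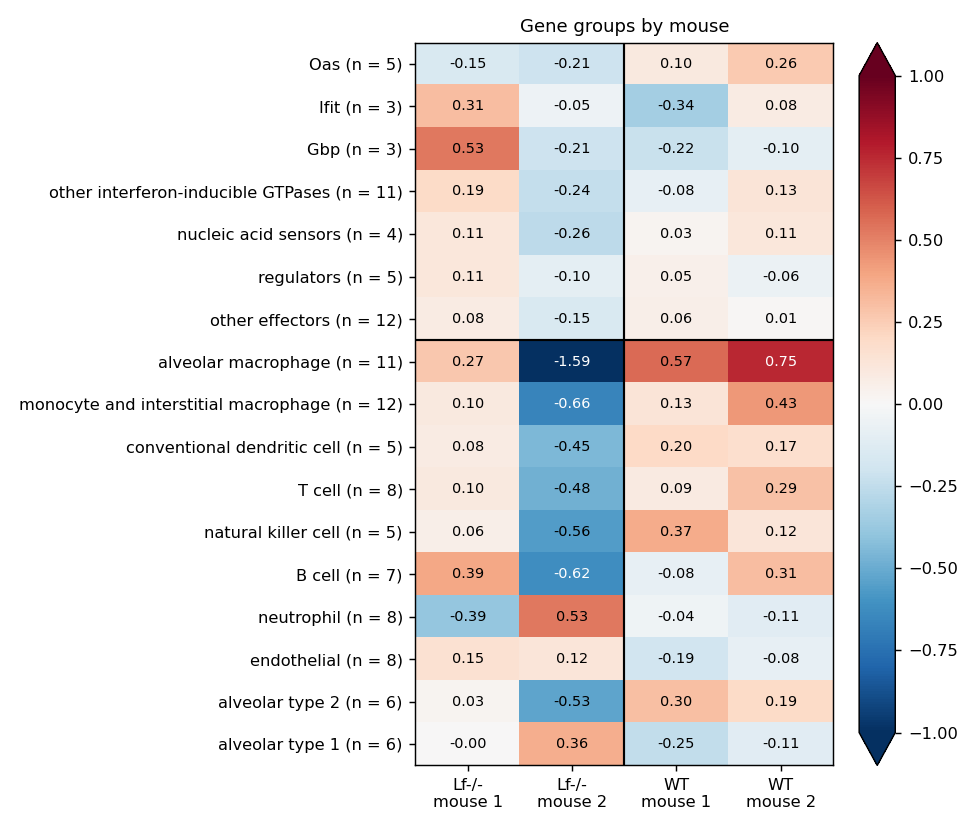
Mean deviation of each gene group from the mean of the 4 mice, in log2(FPKM + 1), with Lf-/- mice in the left columns, WT mice in the right columns and n the tested genes of a group. The Gbp genes stand out in Lf-/- mouse 1 (0.53), the Oas genes are negative in both Lf-/- mice (-0.15 and -0.21), and macrophage markers are lowest in Lf-/- mouse 2 (-1.59, beyond the colour scale). The Oas values include Oas3, which entered the test through the WT mice only.

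The rest of the pathway was read from fixed lists. Of 21 interferon ligands, 19 were listed at 0 in all 4 libraries, among them Ifnb1 and every listed Ifna gene. Ifng had 0.213 and 0.145 FPKM in the Lf-/- mice, against 0.253 and 0.116 FPKM in the WT mice, below the limit for testing and overlapping, and Ifne was above 0 in Lf-/- mouse 2 only (0.0741 FPKM). A listed 0 need not mean absence in these files: Irf8, a factor of macrophages, was listed at 0 in all libraries. Of all genes, 14 were at 0 in at least 1 library and at 10 FPKM or more in another. They include the Y-linked Ddx3y and Eif2s3y and the melanocyte marker Tyrp1. Which of these zeros mean absence was not tested.

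Receptors and signalling genes were nearly level, with 10 of 18 tested higher and 8 lower, none past the threshold, and a median log2 difference of 0.02. Both Lf-/- mice lay above both WT mice for 4 of the 18 and below them for 4, against 18.5% and 17.5% of all genes. Ifnlr1, the receptor chain of type III interferon, had 4.30 and 5.06 FPKM in the Lf-/- mice, against 3.64 and 3.96 FPKM in the WT mice, without overlap. Stat3 had 32.2 and 33.2 FPKM in the Lf-/- mice, against 39.5 and 36.0 FPKM in the WT mice, and Irf3, which is activated by the sensors, 20.3 and 22.3 against 19.9 and 16.6 FPKM. Irf5 had 9.38 and 5.65 FPKM in the Lf-/- mice, against 9.57 and 10.6 FPKM in the WT mice.

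Of 12 tested sensors and adaptors upstream of interferon, 11 were lower and 1 was higher, none past the threshold (median -0.10). Tlr9, a DNA sensor of endosomes, had 1.61 and 0.500 FPKM in the Lf-/- mice, against 1.95 and 2.68 FPKM in the WT mice. Tlr7, the RNA sensor, had 3.28 and 0.679 FPKM in the Lf-/- mice, against 3.12 and 5.90 FPKM in the WT mice. Lf-/- mouse 2 was lowest for 7 of the 12 genes, both of these receptors among them, against 34.4% of all genes. The macrophage, monocyte, conventional dendritic cell, T cell, B cell, natural killer cell and alveolar type 2 sums were also lowest in that mouse. Tlr7 lies on the X chromosome. The part of cell make-up or of the sex chromosomes in these values was not tested. Tmem173 (STING) had 11.9 and 10.25 FPKM in the Lf-/- mice, against 16.7 and 12.35 FPKM in the WT mice. Ifi204 had 13.3 and 5.45 FPKM in the Lf-/- mice, against 5.86 and 2.10 FPKM in the WT mice, and overlapped.

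Other interferon-stimulated genes, 53 tested of 64 listed, gave 19 higher and 34 lower, with a median of -0.11 and none past the threshold. Pyhin1 had 2.12 and 1.80 FPKM in the Lf-/- mice, against 3.20 and 4.90 FPKM in the WT mice (log2 difference -0.75, SE 0.21). Slfn2 had 23.6 and 17.9 FPKM in the Lf-/- mice, against 26.3 and 30.8 FPKM in the WT mice. Tor3a had 20.1 and 21.8 FPKM in the Lf-/- mice, against 16.7 and 15.9 FPKM in the WT mice, and Parp10 11.4 and 10.2 against 8.92 and 8.47 FPKM. The genotypes did not overlap for any of these 4, which were named for their small unadjusted p. Of the 53 tested, 9 lay above WT and 16 below without overlap, against 18.5% and 17.5% of all genes.

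Other interferon-inducible GTPases shared with Gbp2 the difference between the Lf-/- mice but not its full order. All 11 tested were higher in Lf-/- mouse 1 than in Lf-/- mouse 2, with a median log2 gap of 0.43, while 5 were higher and 6 lower by genotype (median -0.03), and 8 were highest in Lf-/- mouse 1 and 7 lowest in Lf-/- mouse 2. Their sum was 123 and 89.0 FPKM in the Lf-/- mice, against 95.4 and 114 FPKM in the WT mice. Ifi47 had 27.7 and 20.8 FPKM in the Lf-/- mice, against 20.4 and 21.5 FPKM in the WT mice, and Tgtp1 2.18 and 1.35 against 2.68 and 2.20 FPKM. Gbp6 had 3.08 and 1.61 FPKM in the Lf-/- mice, against 2.64 and 2.89 FPKM in the WT mice, and Gbp8 1.87 and 1.66 against 1.65 and 2.68 FPKM.

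Targets of interferon gamma were split, with 6 of 10 tested higher and 4 lower. Of the 10, 3 lay above WT and 1 below without overlap, against 18.5% and 17.5% of all genes. The immunoproteasome subunits Psmb10 and Psmb9 were higher in both Lf-/- mice, Psmb10 with 74.7 and 76.2 FPKM against 65.4 and 54.2 FPKM in the WT mice and Psmb9 with 21.7 and 22.4 against 18.6 and 19.2 FPKM. Ifi30, a lysosomal reductase of antigen-presenting cells, had 80.7 and 57.2 FPKM in the Lf-/- mice, against 91.0 and 92.9 FPKM in the WT mice. Ciita, the activator of MHC class II genes, had 5.05 and 2.33 FPKM in the Lf-/- mice, against 4.52 and 6.51 FPKM in the WT mice. None of these passed the threshold (adjusted p between 0.89 and 0.891 by limma).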

How the data were processed

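RNA of lung tissue was sequenced from 2 Lf-/- and 2 WT mice, 1 library per mouse, so p-values measure the spread between these mice. The authors extracted total RNA with a mirVana kit, per the labels' protocols, and deposited FPKM values by gene symbol. Per the submitters' processing notes, TopHat, Cufflinks, HTSeq, DESeq and GRCm38 were used, with no version or role. Annotation, strand setting and handling of multiply matching reads are not stated, so overlapping and antisense genes and near-identical copies are uncertain. Repeated symbols (46 entries of 39 symbols) were summed. All 12573 genes that reached 1 FPKM in 2 or more libraries were fitted with limma 3.58.1 (R 4.3.3) on log2(FPKM + 1), which shrinks differences of low genes, with genotype as the only term, a mean-variance trend and Benjamini-Hochberg adjustment at 0.05. There were 2 residual degrees of freedom and 2.62 prior ones. The fit was also run on simulated data with noise drawn from its own variances. That run checks the code and not which differences could be called in these mice. Positions and transcripts came from GENCODE vM21, copies from BLAST 2.17.0 (at least 95% identity over at least 50% of a transcript), and promoters from RefSeq. Figures and tables used Python 3.11.15, pandas 2.3.3, numpy 2.4.6 and matplotlib 3.10.9. The members and lists were chosen with earlier results of these data known. Every member could be named; from each pathway list the 4 tested genes with the smallest p were named, and markers, copies and Irf8 were named beside results they touch. The alternatives were other pseudocounts, filters, scalings, a constant prior variance, mouse number as a block, leaving out each mouse, a threshold of 0.1 and summed copies.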

Additional observations from a re-analysis of the deposited data

How the results depend on the processing

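No member was called under any of 13 alternatives to the fit or at a threshold of 0.1, and the smallest adjusted p of a member lay between 0.526 (without Lf-/- mouse 1) and 1. Of 407 alternative values of single members, 22 had the opposite sign, in 14 members, and none of the 22 belonged to a called gene. The Oas median of -0.27 was -0.39 with a pseudocount of 0.1, -0.15 after quantile normalization and, with mean FPKM held to at least 5, -0.05, where 1 of 5 genes was left, and it ranged from -0.35 to -0.17 when single mice were left out. The median over all members was 0.12 with that limit, where 23 genes were left, and the count below WT without overlap was then 3. The share of all genes without overlap was not computed at that limit. When single mice were left out, the count above WT ranged from 6 to 17 and the count below WT from 10 to 19. The shares of all genes also rose, where computed, to between 28.4% and 39.7% above WT and between 35.6% and 40% below. With all mice they were 18.5% and 17.5%. Quantile normalization turned the signs of Irf9 (0.00) and Zbp1 (0.02), moved the split of members to 16 higher and 16 lower, and shifted the median of all genes to 0.03. Signs also turned when a mouse was left out, with ranges of -0.08 to 0.98 for Gbp2, -0.14 to 0.63 for Gbp3, -0.29 to 0.54 for Irf7, -0.13 to 0.58 for Iigp1, -0.15 to 0.05 for Oasl2, -0.39 to 0.12 for Ifit1, -0.25 to 0.03 for Ifih1, -0.25 to 0.01 for Ddx58, -0.36 to 0.26 for Zbp1, -0.07 to 0.05 for Irf9, -0.19 to 0.08 for Usp18, -0.10 to 0.23 for Rtp4, -0.05 to 0.13 for Xaf1 and -1.40 to 0.31 for Ifi27l2a. The causes were not tested beyond the loss of genes or mice. Mouse numbers name separate animals, and deviations of same-numbered mice correlated at -0.336 across genes. With the mouse number as a replicate block no member was called (smallest adjusted p = 1) and no gene of the table was, against 3 without the block. The count over all genes was also 0 with no filter and 0 to 1 when single mice were left out. Summing Ifit3 with Ifit3b and Oas1a with Oas1g was chosen after seeing the data and turned no sign. With FPKM and no read totals, counting error behind low members such as Oas3 and Mx1 cannot be given.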
